A study of Mus musculus with 2 samples.

Results

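The genes described here are 41 immediate early and heat shock genes, taken from a fixed list of symbols and followed across the cell classes of 2 mouse lungs. Of the 41, 40 were in the gene lists of both libraries, out of 27999 genes listed, and Cebpd was not analysed here. They comprised 29 immediate early genes and 11 heat shock genes. The libraries were 10x Genomics single-cell RNA libraries from female FVB/NJ mice. The mice were 10 weeks old when Met-1 mouse mammary carcinoma cells were injected into a vein. Both groups were injected with the same cell line, and neither was an uninjected control. The low metastatic burden lung was taken at week 1 and the high metastatic burden lung at week 3. Each group was 1 library from 1 mouse, so burden, week and mouse cannot be told apart and no difference between the lungs could be tested. Met-1 is a single carcinoma line that seeds the lung directly from the blood, with no primary tumor in the mouse. The intervals given below are exact 95% intervals that cover counting error only.

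Immediate early genes are transcribed within minutes of a stimulus, without new protein synthesis, from promoters that are kept ready in resting cells. Their first products are transcription factors, chiefly the Fos and Jun proteins that pair as AP-1, the Egr zinc fingers and the orphan receptor Nr4a1, and a second set of products, such as the phosphatase encoded by Dusp1 and the mRNA decay factor encoded by Zfp36, shuts the response down again. Heat shock genes encode chaperones: some are made all the time to fold new proteins, and others are switched on by heat shock factor when proteins unfold. In dissociated lung both sets are known as genes that respond to tissue handling as well as to injury, and the labels give the same collagenase-based dissociation for both lungs.

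The promoters of 34 of the 41 genes were found in the RefSeq windows for GRCm38.p6, in 43 windows of 250 bases upstream of a start. The stretches below are shown because they carry motifs that were searched for in the chaperone and immediate early promoters. Capitals mark the core heat shock element GAANNTTC (or TTCNNGAA) in the chaperone promoters, the cAMP response element TGACGTCA in the Dusp1 and Ppp1r15a promoters, and the TATA box TATAAA in the Fos promoter.
Hspa1a, chr17:34972157-34972306, minus strand: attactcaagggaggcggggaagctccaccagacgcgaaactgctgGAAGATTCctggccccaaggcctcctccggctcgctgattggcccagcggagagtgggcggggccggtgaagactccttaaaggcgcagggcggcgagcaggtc
Hspa1b, chr17:34959239-34959388, minus strand: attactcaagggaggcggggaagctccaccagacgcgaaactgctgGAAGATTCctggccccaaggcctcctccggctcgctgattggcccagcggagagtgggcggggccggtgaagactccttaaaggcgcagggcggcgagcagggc
Hspb1, chr5:135887769-135887918, plus strand: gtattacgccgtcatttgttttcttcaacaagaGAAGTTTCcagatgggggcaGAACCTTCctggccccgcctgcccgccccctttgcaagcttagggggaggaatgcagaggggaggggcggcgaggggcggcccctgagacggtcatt
Dusp1, chr17:26508520-26508622, minus strand: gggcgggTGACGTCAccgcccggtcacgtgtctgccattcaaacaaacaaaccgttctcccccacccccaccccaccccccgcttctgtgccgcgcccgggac
Ppp1r15a, chr7:45526269-45526329, minus strand: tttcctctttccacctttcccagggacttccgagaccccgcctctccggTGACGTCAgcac
Fos, chr12:85473740-85473889, plus strand: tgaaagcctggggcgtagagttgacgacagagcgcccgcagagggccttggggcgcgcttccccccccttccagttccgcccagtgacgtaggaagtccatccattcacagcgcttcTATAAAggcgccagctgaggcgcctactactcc

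Both strands were searched, matches that overlapped were counted separately, and the CArG box, named alone because its middle letters are each A or T, can hold TATAAA. The heat shock element core was found in 8 of 13 heat shock windows (61.5%), in 4 of 30 immediate early windows (13.3%), and in 12.8% of all 32851 windows. By gene it was present in 7 of 8 chaperone genes with a window, against 3932 of all 27025 genes. These were Hspa1a, Hspa1b, Hspb1, Hspd1, Hspe1, Hsph1 and Dnaja1, and Dnajb1 was the exception. Hspd1 and Hspe1 share the same cores on opposite strands, and the overlapping Hsph1 windows hold the same site, so these counts include sites more than once. The cAMP response element was in 3 of 30 immediate early windows (10%), those of Btg2, Dusp1 and Ppp1r15a, in 0 of 13 heat shock windows, and in 1.55% of all windows. The CArG box, the letters bound by serum response factor, was in 5 of 30 immediate early windows (16.7%, from Egr2 and Zfp36), in 0 of 13 heat shock windows and in 1.47% of all windows. Overlapping Egr2 windows counted the same site more than once. By gene the CArG box was in 2 of 26 immediate early genes with a window, against 439 of all 27025 genes. TATAAA or its complement was in 4 of 30 immediate early windows (13.3%), about the 12.4% of all windows, and in 0 of 13 heat shock windows. The AP-1 letters TGAGTCA or TGACTCA were in none of the 43 windows against 4.46% of all. The Hspa1a and Hspa1b stretches matched at 247 of 250 upstream bases. These genes are near-identical copies, so reads may have been split between them and their single values are uncertain. The windows of Hspe1 and Hspd1, which encode the paired mitochondrial chaperonins on opposite strands, overlapped over 215 bases (chr1:55087933-55088147).

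After a filter on genes detected and mitochondrial reads, 2473 cells of the low burden lung and 3033 of the high burden lung remained, with a median of 4073 and 13998 UMIs per cell, a 3.44-fold gap. Cells were put in classes by marker genes, and 248 (10.0%) and 284 (9.36%) cells fitted no class. 11 cell barcodes occurred in both libraries. Classes are called "-like" because they rest on marker lists, and a class was used where a library held at least 20 of its cells: 15 classes at low burden, 10 at high burden and 8 in both. The C1q macrophage-like class had 55 and 840 cells and the metastatic-like class 1394 cells at high burden. No cell of the low burden library was placed in the metastatic-like class. RNA free in the droplets was estimated from the surfactant mRNA Sftpc in classes that should not make it. There it stood at 6.13% to 9.05% of its library average at low burden and at 23.2% to 29.2% at high burden. In CPM these classes held 787 to 1162 and 629 to 792, and the library average was 12843 and 2709 CPM. The higher share thus went with a lower average, and AT2-like cells numbered 113 and 57. All free RNA values below rest on this share. Whether it holds for other genes was not tested. Levels are given as CPM, the UMIs of a gene scaled to 1000000 UMIs of its class. The 40 genes took 1.86% of all UMIs at low burden and 1.56% at high burden.

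At low burden the C1q macrophage-like cells, macrophages that make complement C1q, carried the highest immediate early level, 26459.5 CPM (interval 25819.5 to 27111.5). Monocyte-like (20856 CPM) and lymphatic endothelial-like cells (19196 CPM) came next, and the intervals of these 3 classes did not overlap. Of the monocyte-like sum, 6938 CPM came from the Klf and Cebp factors. For the AP-1 subunits monocyte-like cells (5819 CPM) lay below lymphatic endothelial-like (8417 CPM), dendritic-like (6594 CPM) and fibroblast-like cells (6488 CPM). They also lay below these classes for the other immediate early factors (1841 CPM). For the feedback genes (5789 CPM) only C1q macrophage-like cells were higher. Dendritic-like (16244 CPM) and fibroblast-like cells (15917 CPM) were not separated by their intervals, and the same held for neighbours in the run of T-like, AT1-like, NK-like, ciliated-like and mesothelial-like cells from 9641 to 8108 CPM. AT2-like cells, which make surfactant, were lowest at 4736 CPM. The order of the chaperones was another. Ciliated-like cells (11675 CPM) and smooth muscle or pericyte-like cells (10626 CPM) stood above every other class. The remaining classes except AT2-like cells lay between 4309 and 5771 CPM with mostly overlapping intervals. AT2-like cells were again lowest at 3079 CPM. Their own marker genes, however, summed to 281486 CPM in this lung, with Sftpc at 227522 CPM. In the high burden lung these markers held 238688 CPM. So large a share lowers the CPM of all other genes in the class. Whether AT2-like cells would be lowest without their markers was not tested, here or for the lists and genes below. Across the 15 classes the sums of the immediate early and the heat shock genes had a Pearson r of -0.06 and a Spearman rho of 0.06, values that describe classes of a single library sharing its depth and free RNA.

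**Figure D1:**
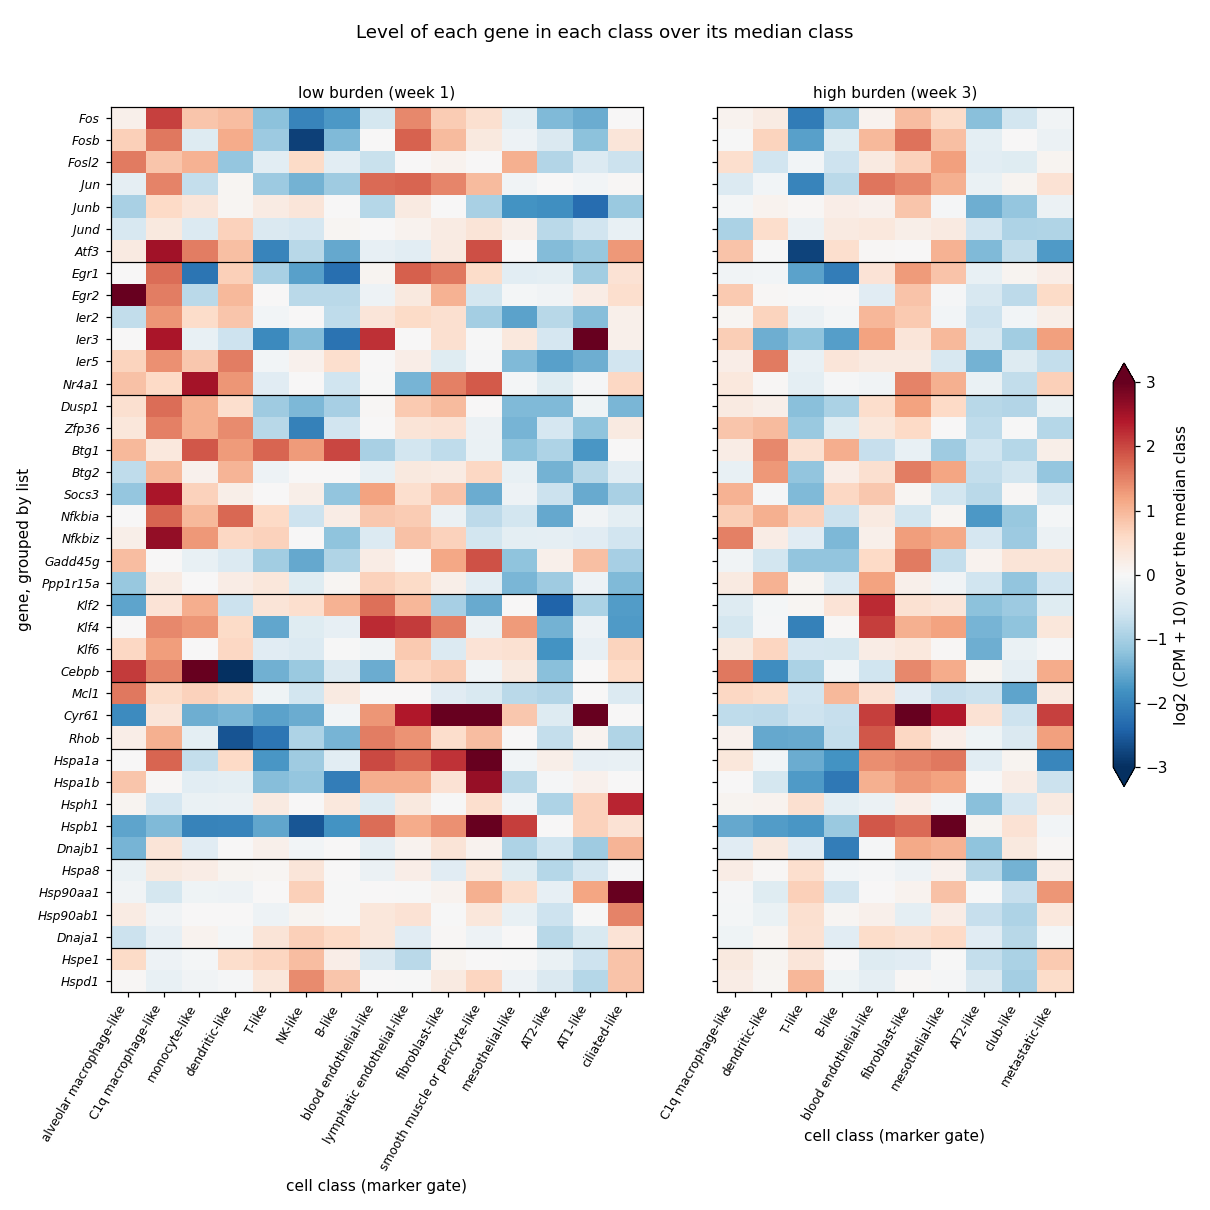
Level of each of the 40 genes in each cell class over the median class of the same library, as log2 of (CPM + 10) ratios in color, with low burden on the left and high burden on the right and horizontal lines between gene lists. The C1q macrophage-like column is red across the immediate early rows at low burden and pale at high burden, while Hspa1a, Hspb1 and Cyr61 are red in the vessel wall and stromal columns.

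To count genes per class within a library, a gene was called above the median class where (CPM + 10) was at least 2-fold that of its median class, among genes with 200 or more UMIs over the classes. At low burden 19 of 40 genes were called in C1q macrophage-like cells against 8.01% of all genes, 10 in monocyte-like cells (background 8.67%), 10 in blood endothelial-like cells (17.6%) and 10 in lymphatic endothelial-like cells (12.6%). Fibroblast-like cells had 9 (12.3%), smooth muscle or pericyte-like cells 8 (11.2%), and dendritic-like cells 7 (6.11%). Counts at or below the background were found in ciliated-like cells with 5 (13%), alveolar macrophage-like cells with 4 (10.1%), mesothelial-like cells with 3 (12%), AT1-like cells with 3 (14.1%), NK-like cells with 2 (8.47%), B-like cells with 2 (7.72%), T-like cells with 1 (5.93%) and AT2-like cells with 0 (4.65%). The order below the C1q macrophage-like cells depended on the scaling: with median-of-ratios scaling dendritic-like cells had 15 and blood endothelial-like cells 6. Mesothelial-like cells had 1 without the filter on cells.

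The AP-1 subunits were highest in C1q macrophage-like cells (11145 CPM in all) and lowest in AT1-like cells (1909 CPM) at low burden. Fos stood at 4997 CPM in C1q macrophage-like cells, 3256 CPM in lymphatic endothelial-like cells and 293 CPM in NK-like cells, where free RNA alone would give 115 CPM. In the lymphatic endothelial-like class 1 of the 26 cells held 26.1% of the Fos UMIs. Atf3, a stress-responsive partner of the Jun proteins, reached 640.5 CPM in C1q macrophage-like cells and 18.5 CPM in T-like cells. Jund, which is less dependent on a stimulus than the other subunits, varied least of the 7, from 536 CPM in AT2-like to 1535 CPM in dendritic-like cells. Fosl2 was highest in alveolar macrophage-like cells at 169 CPM.

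Among the other immediate early factors, the C1q macrophage-like class was again highest (3517 CPM) and the B-like class lowest (682 CPM). Single genes had other leaders. Ier3, which acts on survival signalling, was at 2223 CPM in AT1-like cells, the flat cells of gas exchange, and lowest in B-like cells, at no more than free RNA would give. Egr2, a zinc finger factor of macrophage programs, was at 144 CPM in alveolar macrophage-like cells with the next class at 40.8 CPM. Nr4a1, the orphan receptor that patrolling monocytes depend on, was highest in monocyte-like cells at 648 CPM.

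The feedback genes were highest in C1q macrophage-like cells (7429 CPM) and lowest in AT2-like cells (1252 CPM). Dusp1, which dephosphorylates MAP kinases, ranged from 339.5 CPM in ciliated-like cells to 2880 CPM in C1q macrophage-like cells. Socs3, an inhibitor of cytokine receptor signalling, was at 469 CPM in C1q macrophage-like cells and 193 CPM in the next class, blood endothelial-like cells. Btg1, an antiproliferative gene of resting lymphocytes, was highest in B-like cells at 1863 CPM. The Klf and Cebp factors were highest in monocyte-like cells (6938 CPM) and lowest in AT2-like cells (473 CPM). Cebpb, a myeloid transcription factor, was at 4334 CPM in monocyte-like and 1875 CPM in alveolar macrophage-like cells, and Klf2, a flow-responsive factor of endothelium, was at 2688 CPM in blood endothelial-like cells. The survival and matrix genes were highest in smooth muscle or pericyte-like cells (2652 CPM) and lowest in T-like cells (229 CPM). Cyr61, a secreted matrix protein, accounted for this with 2230 CPM, against 1233 CPM in fibroblast-like cells. Alveolar macrophage-like cells were lowest, under the 35.3 CPM that free RNA would give them.

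The chaperones divided by kind. The inducible chaperones were highest in smooth muscle or pericyte-like cells (5417 CPM) and lowest in NK-like cells (284 CPM). Hspa1a, the inducible Hsp70, was at 1837 CPM there and at 586 CPM in fibroblast-like cells, and Hspb1, a small chaperone of contractile and epithelial cells, was at 3100 CPM there and at 1128 CPM in mesothelial-like cells. The constitutive cytosolic chaperones were highest in ciliated-like cells (9940 CPM), where Hsp90aa1 reached 4599.8 CPM and Hsp90ab1 3198 CPM, and lowest in AT2-like cells (2234.5 CPM). Hsph1 (255 CPM) and Dnajb1 (316 CPM), co-chaperones of Hsp70, were also highest in ciliated-like cells. Hspa8, the constitutive Hsp70, differed by only 2.31-fold between its highest class, NK-like at 2163 CPM, and its lowest, AT2-like at 935 CPM. The mitochondrial chaperonins Hspe1 and Hspd1 were highest in NK-like cells (789 CPM), with an interval overlapping that of ciliated-like cells (670 CPM), and lowest in AT1-like cells (216 CPM). For all lists but the Klf and Cebp factors and the constitutive cytosolic chaperones, the interval of the lowest class overlapped that of the next class.

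At high burden fibroblast-like cells led the immediate early genes with 16796 CPM, followed by blood endothelial-like (13810 CPM), mesothelial-like (12342 CPM), dendritic-like (11488 CPM) and C1q macrophage-like cells (9943 CPM), with no overlap between neighbouring intervals. Metastatic-like cells were sixth at 8912 CPM. T-like and club-like cells, at 5771 and 5451 CPM, were not separated by their intervals, and AT2-like cells were lowest at 4774 CPM. For the chaperones mesothelial-like cells were highest (8114.5 CPM), metastatic-like (6541 CPM) and T-like cells (6481 CPM) followed with overlapping intervals, and club-like cells were lowest (2798 CPM). Over the 10 classes the sums had a Pearson r of 0.50 and a Spearman rho of 0.53, again as a description of classes in a single library.

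**Figure D2:**
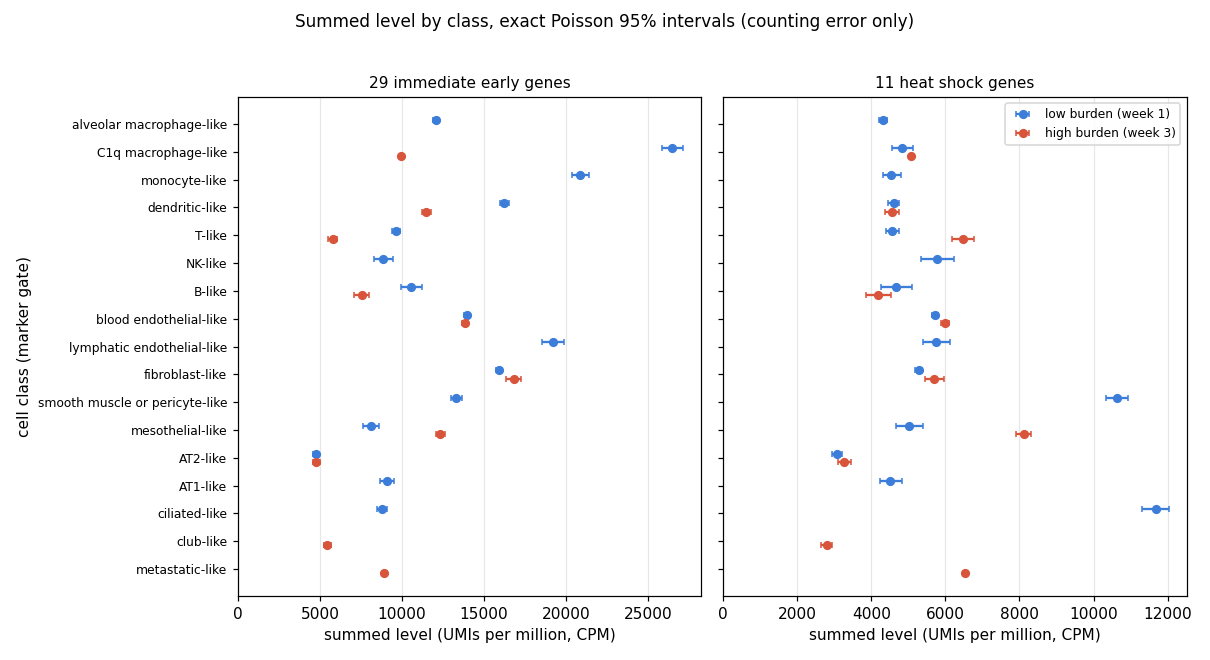
Summed level of the 29 immediate early genes and of the 11 heat shock genes in each cell class, in CPM, with exact 95% Poisson intervals that cover counting error only; blue marks the low and red the high burden lung. C1q macrophage-like cells sit at 26459.5 and 9943 CPM for the immediate early genes and at 4838 and 5080 CPM for the heat shock genes.

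By the same rule within the high burden library, 15 of 40 genes were above the median class in fibroblast-like cells (background 8.36%), 13 in mesothelial-like cells (7.32%), 10 in blood endothelial-like cells (12.1%) and 5 in dendritic-like cells (4.65%). Metastatic-like cells had 5 (6.89%), namely Ier3, Cebpb, Cyr61, Rhob and Hsp90aa1, and C1q macrophage-like cells had 3 (5.85%), Socs3, Nfkbiz and Cebpb. B-like cells had 1 (4.81%), and T-like (6.36%), AT2-like (3.54%) and club-like cells (1.64%) had 0. Fibroblast-like cells were the highest class for 10 of the 29 immediate early genes, among them Fos (1968 CPM), Dusp1 (1590 CPM), Btg2 (1239 CPM) and Cyr61 (1691 CPM). At low burden C1q macrophage-like cells had held that place for 10 of 29, but among 15 classes rather than 10. Fibroblast-like cells numbered 458 at low and 49 at high burden, with fibroblast markers at 32021 and 20541 CPM. With median-of-ratios scaling the counts were 6 in mesothelial-like, 6 in blood endothelial-like, 1 in metastatic-like and 3 in club-like cells. Mesothelial-like cells had 7 of 38 genes after thinning, dendritic-like cells 3 without the cells highest in these genes, and C1q macrophage-like cells 6 with the expected free RNA subtracted, so the order of the classes after fibroblast-like cells is not settled by these counts.

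Fibroblast-like cells were highest for the AP-1 subunits (6336 CPM), the other immediate early factors (2397 CPM) and the survival and matrix genes (1950.2 CPM). Dendritic-like cells were highest for the feedback genes (4654.5 CPM), led by Nfkbia, the inhibitor of NF-kappaB, at 1115 CPM, with an interval for the list (4474 to 4841 CPM) that overlapped that of fibroblast-like cells (4107 to 4555 CPM). Blood endothelial-like cells were highest for the Klf and Cebp factors (2731 CPM). The lowest classes for these lists were AT2-like cells (1724 CPM for AP-1, 1321 CPM for feedback, 531 CPM for Klf and Cebp), T-like cells (785 CPM for the other factors) and club-like cells (175 CPM for survival and matrix). Mesothelial-like cells had the most inducible chaperone RNA (2910.5 CPM) and B-like cells the least (207 CPM). The constitutive cytosolic chaperones stood at 5286 CPM in T-like cells (interval 5020 to 5562) and at 5053 CPM in metastatic-like cells (5028 to 5077), which were not separated, and the mitochondrial chaperonins at 1009.7 CPM in metastatic-like and 885 CPM in T-like cells, also with overlapping intervals. Club-like cells were lowest for both (1738 and 299 CPM). Except for the AP-1 subunits and the constitutive chaperones, the lowest class of each list overlapped the next class in its interval.

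Metastatic-like cells differed from the other classes in which genes they carried. Hsp90aa1, an Hsp90 isoform, was at 1330 CPM, above mesothelial-like cells at 977 CPM, and Hspe1 was at 798 CPM, above T-like cells at 592 CPM. Hspa1a was at 44.1 CPM, the lowest value of the 10 classes, with B-like (50.1 CPM) and T-like cells (64.2 CPM) close to it and 30.9 CPM expected there from free RNA, and Btg2 and Atf3 were 2-fold or more under their median class. Ier3 was highest there at 640 CPM, with an interval that overlapped that of blood endothelial-like cells at 632 CPM. Among genes that are no members, Fosl1, an AP-1 subunit known from invasive carcinoma cells, was at 111 CPM in metastatic-like cells and between 5.95 and 15.7 CPM in the other classes.

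Set against each other, the lungs differed in opposite ways from class to class. The immediate early sum was 2.66-fold lower at high burden in C1q macrophage-like cells (log2 -1.41, interval -1.45 to -1.38), and was also lower in T-like (-0.74), dendritic-like (-0.50) and B-like cells (-0.49). It was nearly level in blood endothelial-like (-0.01, interval -0.03 to 0.01), AT2-like (0.01, interval -0.07 to 0.09) and fibroblast-like cells (0.08, interval 0.04 to 0.12), and higher in mesothelial-like cells (0.61, interval 0.52 to 0.69). The heat shock sum had log2 ratios of 0.70 (0.58 to 0.81) in mesothelial-like, 0.50 (0.42 to 0.59) in T-like, 0.07 (-0.01 to 0.15) in C1q macrophage-like and -0.16 in B-like cells. Over the 8 classes the immediate early sum was higher in 3 and the heat shock sum in 6. With 1 mouse a group, the spread between mice is not known for any of these values.

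For single genes, a pair of gene and class with at least 50 UMIs over both libraries was called where the CPM differed by 2-fold or more. Of 271 such pairs, 27 were higher and 28 lower at high burden. The plot of ratios by class shows where they lie.

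**Figure D3:**
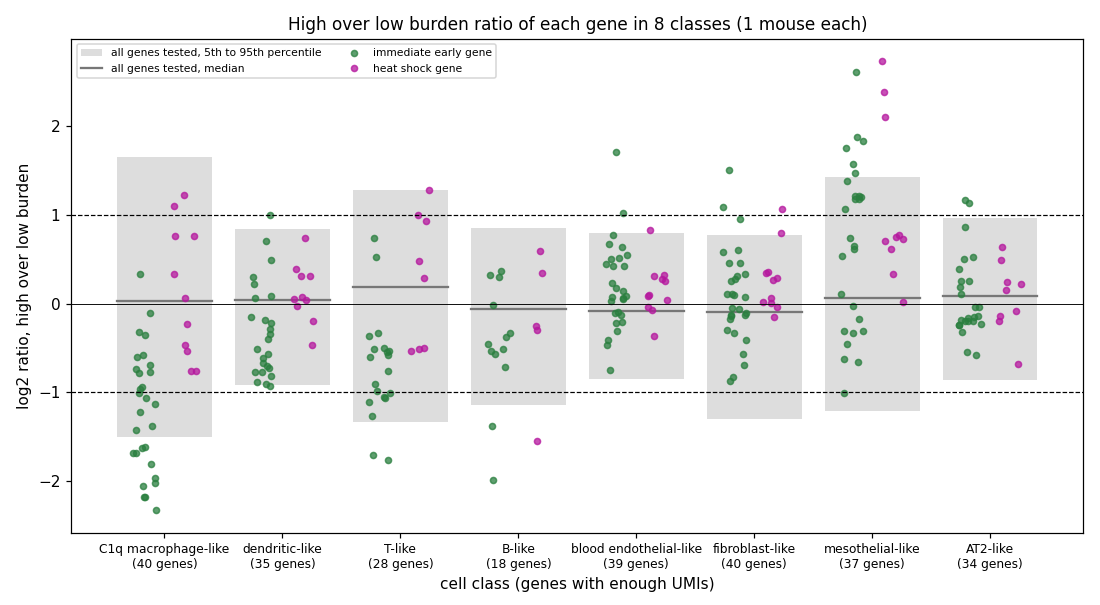
Log2 ratio of the level at high over low burden for each of the 40 genes with at least 50 UMIs (points, immediate early and heat shock genes in separate colors) in the 8 classes found in both lungs, with a gray band from the 5th to the 95th percentile of all genes in that class and dashed lines at 2-fold. The immediate early points of C1q macrophage-like cells lie low, with 17 of 29 past 2-fold, and 16 of 37 points of mesothelial-like cells lie past 2-fold on the other side.

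In C1q macrophage-like cells 17 of 40 genes were 2-fold or more lower at high burden, against 12.1% of the 8936 genes measured, and all 17 were immediate early genes. The class held 245129 UMIs at low and 9362382 at high burden, so genes could pass the UMI minimum through the high burden lung alone. The shares of all genes called, 12.1% lower and 19.9% higher, depend on this. The counts set against them are therefore a description and no support for a difference. Of the 29 immediate early genes 28 were below 0 on the log2 scale. The median log2 ratio of the 40 genes was -0.78 and that of all genes 0.03. Klf4, a Kruppel-like factor of macrophage polarization, went from 489.5 to 97.4 CPM (log2 -2.33, interval -2.61 to -2.04), and Klf2 from 1134 to 249.8 CPM (-2.18). Fos went from 4997 to 1105 CPM (-2.18, interval -2.26 to -2.09), Jun from 1126 to 287 CPM (-1.97) and Jund from 1167 to 281 CPM (-2.05). The feedback gene Dusp1 went from 2880 to 822 CPM (-1.81). Cebpb (-0.77), Nfkbia (-0.60) and Nfkbiz (-0.32) were lower by less than 2-fold.

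The chaperones of these macrophages did not follow. Of 11, 2 were 2-fold or more higher, against 19.9% of all genes, and none lower. Hspe1 went from 240.7 to 563 CPM (log2 1.23, interval 0.86 to 1.62) and its partner Hspd1 from 77.5 to 166 CPM (1.10, 0.45 to 1.84, and 0.45 in thinned cells), while Hsp90aa1 went from 302 to 514 CPM (0.77). With the expected free RNA subtracted the log2 ratios were 1.12 for Hspe1, 1.07 for Hspd1 and only 0.18 for Hsp90aa1. Hspa1a (-0.76) and Dnajb1 (-0.77) were lower by less than 2-fold. The cells differed in other ways beside these genes. Their median depth was 3910 and 10390.5 UMIs, the low burden cells were led by Retnla, Pf4 and Cxcl13 beside the C1q genes and the high burden cells by Ccl12, Ccl2, Ccl7 and Gatm, and cell division genes stood at 204 and 1590 CPM. The part of these differences in the result was not tested. In cells thinned to an equal depth the immediate early sum was at log2 -1.46, and over all alternative settings it lay between -1.46 and -1.32.

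T-like cells had 7 of 28 genes 2-fold or more lower (background 9.11%) and 1 higher (10.2%). Btg1, an antiproliferative gene, went from 1545 to 457 CPM (log2 -1.76, interval -2.04 to -1.49), Klf2, which keeps naive T cells quiescent, from 1114 to 342 CPM (-1.70), and Btg2 from 438 to 182 CPM (-1.27). On the other side Hspd1 went from 120 to 292 CPM (1.28, 0.80 to 1.78), and Hsp90aa1 (0.996) and Hsp90ab1 (0.93) stayed just inside 2-fold. The class held 132 and 31 cells, its leading genes went from Jchain and Dapl1 to Tnfrsf4, Icos and Ctla4, and the part of this change in the result was not tested. At low burden Jchain was at 980 CPM in T-like cells, 3879 CPM in B-like cells and at most 17.1 CPM in the other classes. In T-like cells at high burden it was at 7.13 CPM. Whether the low burden class held cells of another kind was not tested. The count of 7 ranged from 3, without the 10% of cells highest in these genes, to 14 with the expected free RNA subtracted.

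In B-like cells 3 of 18 genes were lower (background 8.19%) and 0 higher (3.05%). Klf2 went from 1757 to 443 CPM (log2 -1.99), Dnaja1, a co-chaperone of Hsp70, from 567 to 193 CPM (-1.55) and Btg1 from 1863 to 715 CPM (-1.38). The highest ratios were those of Hspe1 (0.60), Fos (0.37) and Hsp90ab1 (0.35), each from 64 to 200 UMIs at high burden, and the class had only 29 and 22 cells. In dendritic-like cells 0 of 35 genes were 2-fold lower (4.24%) and 1 higher (3.09%). The latter, Cyr61, went from 29.8 to 59.6 CPM on 21 and 32 UMIs, and at high burden free RNA alone would give 109 CPM. Jund (1535 to 807 CPM, log2 -0.93), Fos (2283 to 1221 CPM, -0.90) and Klf4 (-0.88) were lowest, and Hspd1 (0.74) and Cebpb (0.70) followed Cyr61. With the expected free RNA subtracted 5 of 33 genes were 2-fold lower and 0 higher, and the level of Cebpb was 0 in both lungs.

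Blood endothelial-like cells (526 and 169 cells) showed few differences. Of 39 genes 2 were higher (background 3.29%) and 0 lower (2.88%). Nfkbiz, an atypical inhibitor that also activates NF-kappaB targets, went from 24.4 to 79.8 CPM (log2 1.71, interval 1.31 to 2.12) and Cyr61 from 246.5 to 500.5 CPM (1.02, 0.89 to 1.16), and Hspe1 came next (0.83). Klf2 went from 2688 to 1602 CPM (-0.75), Jund from 952 to 689 CPM (-0.47) and Klf4 from 854 to 644 CPM (-0.41). Fibroblast-like cells had 3 of 40 genes higher (2.47%) and 0 lower (9.02%). These were Nfkbiz (63.7 to 182 CPM, 1.51), Btg2 (584 to 1239 CPM, 1.09) and Hspa1b (47.0 to 98.3 CPM, 1.06), and Jund (1138 to 622 CPM, -0.87), Ppp1r15a (-0.83) and Klf4 (-0.69) were lowest.

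Mesothelial-like cells, the lining of the pleura, had 16 of 37 genes 2-fold or more higher (background 11.5%) and 1 lower (8.33%). The class held 146271 UMIs at low and 747304 at high burden, so genes could pass the UMI minimum through the high burden lung alone. The count of 16 is therefore a description and no support for a difference. The median log2 ratio of the 37 was 0.74 and that of all genes 0.07. Hspa1a went from 116 to 610 CPM (log2 2.39, interval 1.70 to 3.18), Hspa1b from 13.7 to 91.0 CPM on 2 and 68 UMIs (2.73, 0.83 to 5.81) and Dnajb1 from 75.2 to 324 CPM (2.11). Nfkbiz went from 27.3 to 167 CPM on 4 and 125 UMIs (2.61, 1.22 to 4.51). Cyr61 (1.88), Nr4a1 (1.83), Ier3 (1.76) and Dusp1 (1.58) were higher too. The lowest were Klf2, from 855 to 426 CPM (-1.01), Jund (-0.66) and Klf6 (-0.62).

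These values rest on 20 and 40 cells with a median of 6113 and 18833.5 UMIs. At low burden 1 cell held 73.9% of the Fos UMIs, and the Fos ratio was 0.65. The class markers summed to 7691 and 3646 CPM, the fibroblast markers (12 of 16 and 16 of 16 seen) to 17030 and 9423 CPM, the metastatic markers (2 and 11 of 11 seen) to 82.0 and 302 CPM, where metastatic-like cells had 2344 CPM, and the C1q macrophage markers (5 and 9 of 10 seen) to 82.0 and 634 CPM. Their part in the result was not tested. The count of 16 went down to 9 of 18 genes in thinned cells and up to 21 of 37 without the cells highest in these genes.

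AT2-like cells, low in CPM in both lungs, had 2 of 34 genes higher (background 4.51%) and 0 lower (3.02%). Ier3 went from 84.5 to 190 CPM (log2 1.17, interval 0.67 to 1.69) and Cyr61 from 69.1 to 152 CPM (1.14, 0.58 to 1.72), followed by Nr4a1 (0.87). Dnajb1 (-0.68), Zfp36 (-0.58) and Jund (-0.55) were lowest. With the expected free RNA subtracted neither gene was 2-fold higher and 5 genes were 2-fold lower. AT2 cells make Sftpc, so the share of free RNA used for them was the median of the classes that should lack it, 7.72% at low and 25.3% at high burden.

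Gene by gene, some members kept a direction across classes. Jund was lower at high burden in 8 of 8 classes, and this held under each scaling and after thinning. Klf4 was lower in 6 of 6 classes and Rhob, a small GTPase of endothelium, in 5 of 5. Klf2 was lower in 7 of 8 classes (6 with free RNA subtracted or after thinning), 4 of them by 2-fold or more. Hspe1 was higher in 8 of 8 classes and in 6 of 8 with the expected free RNA subtracted, and Hsp90ab1 in 8 of 8, in 7 of 8 with equal weight per cell, in 5 of 8 with free RNA subtracted and in 5 of 8 after thinning. Cyr61 was 2-fold higher in 4 of 6 classes and 2-fold lower in C1q macrophage-like cells. With free RNA subtracted its level was 0 in dendritic-like cells of both lungs and 0 in C1q macrophage-like cells at high burden, and its ratio was 0.78 in AT2-like cells, which left blood endothelial-like and mesothelial-like cells as 2-fold higher. Nfkbiz was 2-fold higher in 3 of 5. Fos was higher in 3 of 8 classes (5 with equal weight per cell), Junb in 3 of 8 and Dusp1 in 3 of 8, from -2.18 to 0.65, -1.23 to 1.21 and -1.81 to 1.58 on the log2 scale. Hspa8 stayed between -0.26 and 0.33. Fosl2, Gadd45g, Socs3, Cebpb, Mcl1, Hsph1, Hspb1, Hspa8, Hsp90aa1 and Hsp90ab1 were called in no class.

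Shares per cell gave the spread behind these sums. Each cell was thinned to 2000 UMIs, at which shares move in steps of 0.05%. The median immediate early share in C1q macrophage-like cells was 2.7% at low and 0.95% at high burden, and the range from the 10th to the 90th percentile went from 1.35% to 4.35% and from 0.445% to 1.7%. Mesothelial-like medians were 0.7% and 1.225%, and fibroblast-like medians 1.45% and 1.65%. Ciliated-like cells had a low median of 0.45% with a 90th percentile of 1.965%, so that a minority of cells carried most of the class level. For the chaperones, ciliated-like (1.175%) and smooth muscle or pericyte-like cells (0.9%) had the highest medians, and the latter ranged from 0.35% to 2.24% between the 10th and the 90th percentile. In metastatic-like cells the medians were 0.85% and 0.6%.

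**Figure D4:**
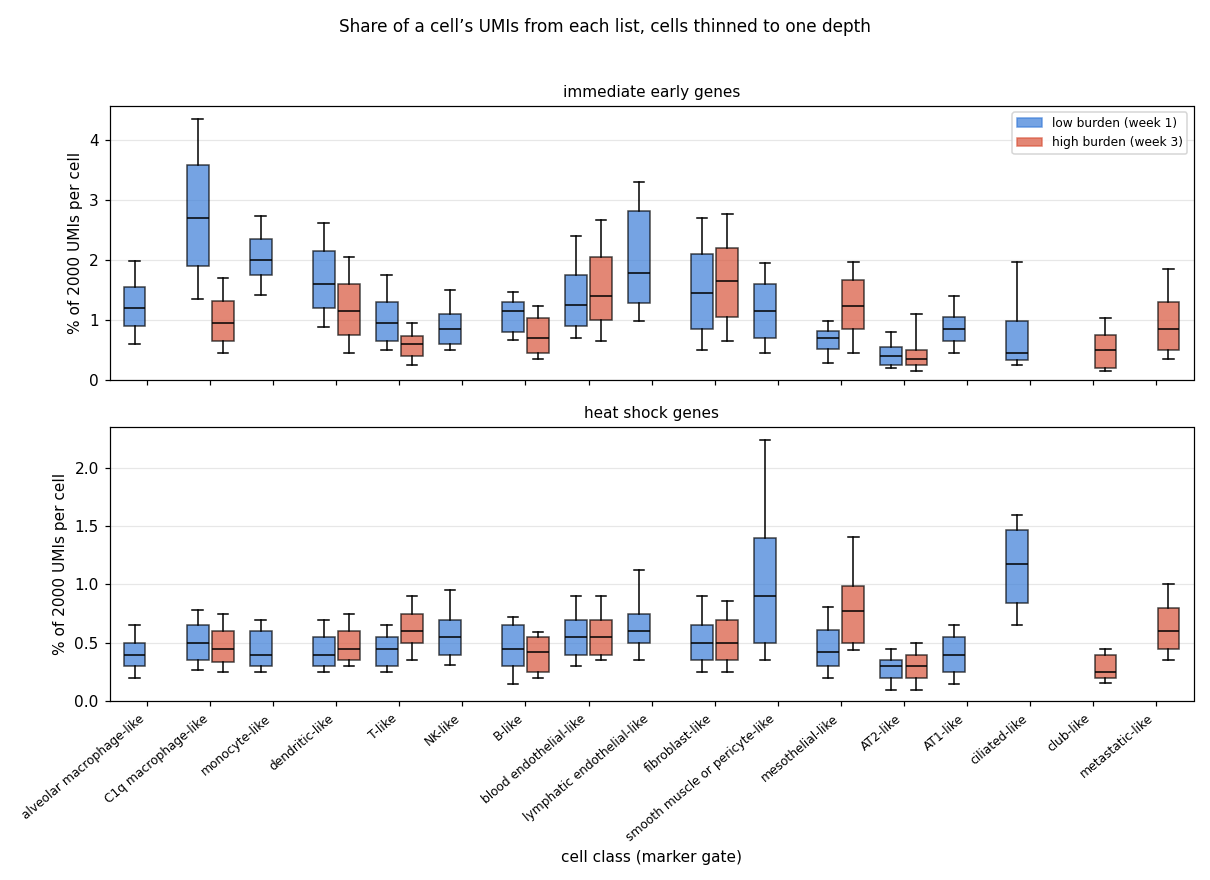
Share of a cell's UMIs from the immediate early genes and from the heat shock genes, in percent of 2000 UMIs after thinning, by class and library; boxes run from the 25th to the 75th percentile with a line at the median and whiskers at the 10th and 90th. C1q macrophage-like cells go from a median of 2.7% to 0.95%, and smooth muscle or pericyte-like cells have the widest heat shock range.

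Cells were also divided by whether a Fos UMI was seen. In all 18 combinations of class and library with enough cells on each side, the mean of the other immediate early UMIs was higher in cells with a Fos UMI, from 1.03-fold in monocyte-like cells to 2.58-fold in ciliated-like cells at low burden. In fibroblast-like cells at low burden, 77.9% of cells had a Fos UMI and the means were 31.4 and 13.7 UMIs in 2000, a 2.30-fold ratio. The heat shock mean was within 0.81-fold to 1.34-fold in the same 18. A Fos UMI does not mark a cell that expresses Fos: it was found in 33.3% of NK-like cells, the class with the least Fos at low burden, and in T-like cells at high burden the 232 CPM of Fos lay under the 243 CPM expected from free RNA. How many cells fell on the Fos side through free RNA was not tested. Hspa1a divided smooth muscle or pericyte-like cells: the 75.3% of cells with a UMI had 2.21-fold more of the other heat shock genes and 1.86-fold more of the immediate early genes than those without. In metastatic-like cells 8.03% of cells had a Hspa1a UMI at this depth, no more than the 9.68% of T-like and 9.09% of B-like cells of the same library. Free RNA alone would give metastatic-like cells 30.9 CPM of Hspa1a, against the 44.1 CPM found. How many of these cells held their Hspa1a UMI through free RNA was not tested. The Pearson r between both shares across cells was 0.52 in smooth muscle or pericyte-like cells, 0.30 and 0.47 in fibroblast-like cells and -0.20 in metastatic-like cells, as a description of cells that share a library.

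Within the metastatic-like class the list divided along the cell cycle. Cycling cells, with at least 3 of the cell division genes detected after thinning, numbered 613 and the others 781. The immediate early sum was 7221 CPM in cycling and 12313 CPM in other cells (log2 -0.77, interval -0.81 to -0.73), and 26 of 28 immediate early genes with enough UMIs were lower. The heat shock sum was 6929 and 5751 CPM (0.27, 0.23 to 0.31). Past 2-fold, 5 genes were lower in cycling cells, against 2.58% of 5667 genes: the antiproliferative Btg2 (91.4 and 309 CPM, -1.76), Fosb (77.5 and 181 CPM, -1.22), Dusp1 (409 and 924 CPM, -1.18), Klf2 (186 and 410 CPM, -1.14) and Klf4 (138 and 279 CPM, -1.02). 1 gene, Hspa1b, was higher on 32 and 19 UMIs, against 3.67%. The mitochondrial chaperonins Hspd1 (265 and 144 CPM, 0.88) and Hspe1 (940 and 608 CPM, 0.63) and the chaperone Hsp90aa1 (1493 and 984 CPM, 0.60) came next. Before thinning the median depth was 27631 UMIs in cycling and 18092 in other cells, and the part of this difference in the result was not tested.

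**Figure D5:**
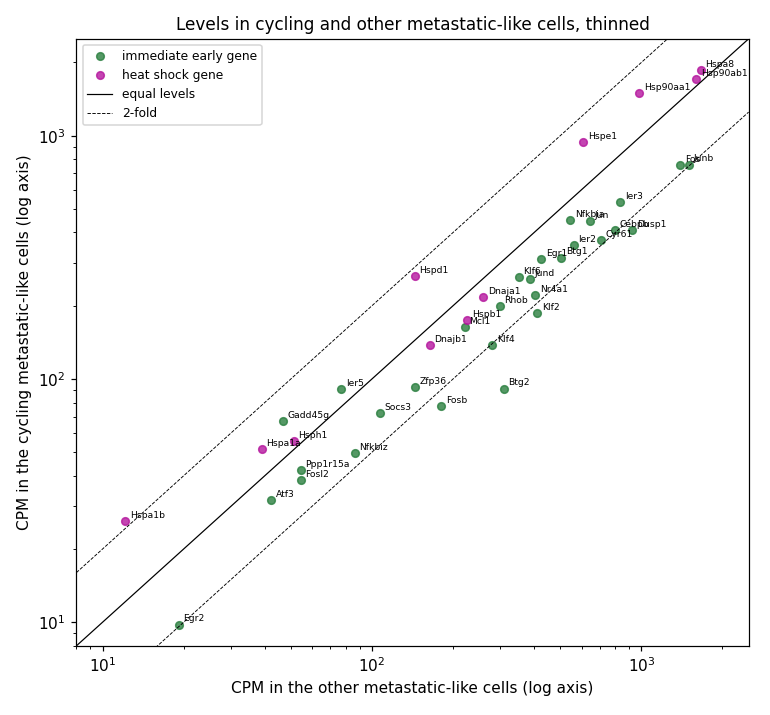
Level of each gene in cycling against other metastatic-like cells of the high burden lung, in CPM on log axes after thinning to 2000 UMIs, with a solid diagonal at equal levels and dashed lines at 2-fold. The immediate early points other than Ier5 and Gadd45g lie on the side of the other cells, Btg2 farthest (91.4 and 309 CPM), and Hspd1, Hspe1 and Hsp90aa1 lie on the side of the cycling cells.

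Genes of the same pathways outside the list gave a mixed picture, to be read against the share of all genes called higher and lower, 19.9% and 12.1% in C1q macrophage-like, 11.5% and 8.33% in mesothelial-like, 3.29% and 2.88% in blood endothelial-like, and 2.47% and 9.02% in fibroblast-like cells. Of other immediate early genes, 4 of 11 were 2-fold or more higher in fibroblast-like cells, 3 of 16 higher and 1 lower in blood endothelial-like cells, 3 of 6 higher in mesothelial-like cells, and 1 of 17 higher and 2 lower in C1q macrophage-like cells, the latter about the background. Of other AP-1 and related leucine zipper genes, 2 of 11 were higher and 2 lower in C1q macrophage-like cells and 0 of 7 differed in fibroblast-like cells. Of other chaperones and heat shock factors, 3 of 17 were higher in C1q macrophage-like cells, about the background, and 0 of 16 in fibroblast-like cells, and 1 of 13 was lower in mesothelial-like cells. Of the integrated stress response, the eIF2-driven program that Ppp1r15a ends, 1 of 7 genes was higher and 3 lower in C1q macrophage-like cells. Cell division genes, Birc5 and Ube2c among them, had 50 UMIs over the whole list at low burden in C1q macrophage-like cells and 11 in mesothelial-like cells, so that they passed the UMI minimum through the high burden library, and no count of them is given. Their summed level was 75.2 and 1145 CPM in mesothelial-like cells, 116 and 983 CPM in blood endothelial-like cells and 2279 and 4494 CPM in T-like cells.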

How the data were processed

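The deposited files hold UMI counts per gene and cell barcode from 1 low burden (week 1) and 1 high burden (week 3) library, made by the authors with Cell Ranger 2.0.2 on mm10 with the PYMT sequence added. The submitters' processing notes also name Seurat. Nothing was normalized in the deposited counts.

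Cells with 1000 to 7000 genes and at most 10% mitochondrial UMIs were kept. A class was given where the marker score was at least 0.2 and led by 0.1, the second score was under 0.35 and 3 markers were detected. These gates were set after seeing the data, and some metastatic markers came from earlier results of these data. Scrublet marked 9 (0.364%) and 7 (0.231%) cells of 5506, too few to have worked, so doublets were not removed. UMIs were summed per class and divided by the class total (CPM). The low burden library held 13283386 UMIs in kept cells and the high burden library 51467856. Intervals are exact Poisson, and exact conditional binomial for ratios. With 1 library a group no test was made.

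The genes and lists were chosen with earlier results of these data known. In each class the 3 highest and 3 lowest ratios are named, as are the highest and lowest class of each list, and pathway genes 2-fold or more in 5 classes. Other genes are named for the lists they belong to and were chosen after their values were seen. Alternatives covered cell filters, gates, scaling, weighting, doublets, UMI minimum, thinning and the cells highest in these genes. Subtraction of the expected free RNA was chosen after seeing the data. It scaled the library average by the Sftpc share of each class, and for epithelial classes by the median share of the others. The counting steps were tested on simulated data. Promoters came from RefSeq windows on GRCm38.p6, with stretches in annotated UTRs left out. Python 3.11.15, numpy 2.4.6, scipy 1.17.1, pandas 2.3.3 and scanpy 1.11.5 were used.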

Additional observations from a re-analysis of the deposited data

Results flagged for a closer look

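8 immediate early genes were 2-fold or more lower at high burden in C1q macrophage-like cells and 2-fold or more higher in mesothelial-like cells, of 27 measured in both. Of the 2354 genes measured in both classes 18 (0.765%) did so, these 8 included. The log2 ratios in these classes were -1.97 and 1.18 for Jun, -1.23 and 1.21 for Junb, and -1.38 and 1.47 for Atf3. Egr1 had -1.63 and 1.38, Ier2 -1.69 and 1.18, and Dusp1 -1.81 and 1.58. Btg2 had -1.43 and 1.22 and Cyr61 -1.01 and 1.88. With 1 library a group the difference between these classes was not tested. The mesothelial-like values rest on 20 and 40 cells. In both classes genes could pass the UMI minimum through the high burden lung alone.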

How the results depend on the processing

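The limits are the single mouse a group, the 3.44-fold gap in depth, free RNA, and small classes. Of the 55 pairs called, thinning to equal depth gave a value for 38 and kept 33, and each alternative planned kept between 33 and 55 with none reversed. The 55 came from a lower UMI minimum, which could not change a called pair, and from removal of the few doublets marked, which could change little. Thinning left 15 pairs higher, of 203, against 27. Subtracting the expected free RNA gave 48 pairs lower, of 269, against 28, kept 47 of 51 and reversed Ier3 in AT2-like cells (-0.12). The cause was not tested. Sums close to 0 changed sign. The immediate early sum of AT2-like cells became -0.22 with a stricter gate, -0.070 with median-of-ratios scaling, -0.065 without the cells highest in these genes and -0.33 with free RNA subtracted, and their heat shock sum -0.33 with the latter. The immediate early sum of blood endothelial-like cells became 0.00065 with cells of a second class kept, 0.058 without mitochondrial and ribosomal protein genes, 0.065 with median-of-ratios scaling, 0.10 with equal weight per cell, 0.11 in thinned cells, 0.0036 without the highest cells and 0.13 with free RNA subtracted, and their heat shock sum -0.011 with equal weight and -0.057 in thinned cells. The heat shock sum of dendritic-like cells became 0.036 without mitochondrial and ribosomal protein genes, 0.15 in thinned cells and 0.032 without the highest cells, that of B-like cells 0.11 without mitochondrial and ribosomal protein genes, and that of C1q macrophage-like cells -0.0024 with equal weight, -0.054 in thinned cells and -0.028 with free RNA subtracted. The immediate early sum of C1q macrophage-like cells (-1.46 to -1.32) and mesothelial-like cells (0.53 to 0.91) kept its sign in all settings run. Median-of-ratios scaling shifted all genes by 0.19 in T-like cells, the largest shift of the 8 classes. No paired analysis was possible because each group was 1 library and no test was made.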
